A study of Homo sapiens with 2 samples.

Results

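The cytosolic ribosomal proteins are the protein parts of the small (40S) and large (60S) subunits of the ribosome, and their transcripts were described in 2 RNA-seq libraries of MDA-MB-231, an established human triple-negative breast cancer cell line. Members were taken by gene name: RPL or RPS followed by a number and, where present, the suffixes of the X-linked gene and of the named variants and paralogs, together with RPLP0, RPLP1, RPLP2 and RPSA. Names of pseudogenes were not taken. This gave 85 genes of 60978 in the deposited table, 32 of the 40S and 53 of the 60S subunit. Among them are 77 genes without a paralog suffix and 8 paralogs, such as RPL39L. FAU, which encodes a ribosomal protein joined to a ubiquitin-like protein, carries another name and is given apart.

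The Control group was 1 culture kept for 24 h, and the other was 1 culture kept for 24 h with 1 µM of an agent that the labels name only as CEL. Both were the same cell line, and no genetic change is given in the labels. Total RNA was sequenced, and levels were deposited as FPKM, the reads counted in a gene scaled to the length of the gene and to the size of the library. The reads recovered in genes summed to 14821148 in the Control library and to 17199398 in the CEL library. With 1 library a group, no difference has a replicate check and no test was possible. Intervals on ratios and shares take in the error of counting alone, and a ratio sets 1 library against another rather than 1 condition against another. The line's markers VIM, CD44, CAV1, EGFR and AXL lay between 123 and 1024 FPKM in both libraries, and the hormone receptor genes ESR1 and PGR had 0 reads. Of the 3 other genes listed as low in the line, ERBB2 was present at 71.7 FPKM in Control against 48.8 in CEL and EPCAM at 17.2 against 8.97, while CDH1 stayed below 1 FPKM. Of 7 markers of macrophages, endothelium, T cells and basal epithelium, CSF1R (2.78 FPKM in Control and 1.81 in CEL) and CD14 (1.92 and 1.36) reached 1 FPKM, and the other 5 stayed below it. Reads in mitochondrially encoded genes made up 7.14% of the total in Control and 4.06% in CEL.

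A ribosome carries a single copy of nearly every ribosomal protein, so the cell makes these proteins in matched amounts and in large numbers. Their mRNAs typically begin with a C followed by a run of pyrimidines, the terminal oligopyrimidine (TOP) tract, through which the mTORC1 kinase complex and the protein LARP1 adjust how strongly they are translated. RPL5 and RPL11, when free of ribosomes, bind the ubiquitin ligase MDM2, which links ribosome assembly to p53. FPKM measures transcript abundance and says nothing of translation or of protein.

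The starts of the genes that stand at the ends of the fold order are shown here because they hold, or lack, the tract for which this gene family is known. The sequences are from RefSeq (GRCh38.p14). Each runs 5′ to 3′ on the gene's strand and holds 20 bases before the annotated start and 20 from it. Capitals mark the unbroken pyrimidine tract from the start, where the start is a C and at least 4 pyrimidines follow it. RPL37 is among the 10 highest folds and is not shown. First come members with the highest CEL over Control folds and such a tract.
RPL39 (chrX:119791611-119791650, minus strand): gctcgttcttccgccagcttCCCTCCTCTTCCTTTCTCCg
RPL38 (chr17:74203658-74203697, plus strand): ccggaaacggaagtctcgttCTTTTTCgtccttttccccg
RPS27 (chr1:153990742-153990781, plus strand): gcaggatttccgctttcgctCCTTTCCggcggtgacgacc
RPS21 (chr20:62387083-62387122, plus strand): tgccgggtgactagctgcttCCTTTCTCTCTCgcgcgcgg
RPS25 (chr11:119018324-119018363, minus strand): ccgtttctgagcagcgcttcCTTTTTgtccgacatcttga
RPL37A (chr2:216498824-216498863, plus strand): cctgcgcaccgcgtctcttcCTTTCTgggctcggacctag
These are members among the 10 highest folds whose annotated start holds no such tract.
RPS29 (chr14:49598691-49598730, minus strand): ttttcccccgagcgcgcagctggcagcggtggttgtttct
RPS27L (chr15:63157458-63157497, minus strand): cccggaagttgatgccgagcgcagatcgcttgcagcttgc
RPS28 (chr19:8321476-8321515, plus strand): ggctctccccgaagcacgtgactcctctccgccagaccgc
These are members among the 10 lowest folds, of which RPS2 and RPL8 are not shown. RPL3 and RPS15 hold no tract by this rule, though RPL3 has a run of 4 pyrimidines from its start.
RPL36A (chrX:101390991-101391030, plus strand): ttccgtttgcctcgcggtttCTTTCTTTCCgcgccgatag
RPS10 (chr6:34426050-34426089, minus strand): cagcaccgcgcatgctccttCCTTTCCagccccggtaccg
RPS23 (chr5:82278335-82278374, minus strand): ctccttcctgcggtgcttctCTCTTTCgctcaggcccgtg
RPL26 (chr17:8383174-8383213, minus strand): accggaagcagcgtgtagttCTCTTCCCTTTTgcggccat
RPL12 (chr9:127451387-127451426, minus strand): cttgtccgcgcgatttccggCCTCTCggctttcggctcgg
RPS9 (chr19:54200838-54200877, plus strand): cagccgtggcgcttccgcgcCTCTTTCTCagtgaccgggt
RPL3 (chr22:39319604-39319643, minus strand): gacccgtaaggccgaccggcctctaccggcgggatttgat
RPS15 (chr19:1438376-1438415, plus strand): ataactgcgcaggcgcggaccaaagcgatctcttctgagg
Both ends of the fold order thus hold starts with and without a tract. The tract is longest in RPL39, at 19 bases. The rule rests on the exact annotated base, and in RPS28 a pyrimidine run opens at the base after it. A start without a tract here therefore does not show that the mRNA lacks one.

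A table of annotated promoters, 250 bases before to 50 bases from each start, held 68 of the 85 members. Of these, 47 (69.1%) had the tract at 1 or more annotated starts. Counted by promoter, 56.0% of the 84 promoters of these members had it, against 4.07% of all 35116 promoters in the table. The 7-base motif CCGGAAG, searched on both strands, lay in 33.3% of the 84 promoters, from 24 members, and in 10.3% of all promoters. AAGATGG, also on both strands, was found in 10.7% (9 members) and in 5.84% of all promoters, and TATAAA in 8.33% (7 members) and in 11.5%. A match describes the letters in this window and is not a measured site.

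Ribosomal protein transcripts were on the whole more abundant in the CEL library. Of the 85 members, 82 reached 1 FPKM in at least 1 library, and 37 of them (45.1%) were at least 1.5-fold higher in CEL by log2((CEL FPKM + 1)/(Control FPKM + 1)), while 0 were at least 1.5-fold lower. By the same rule 8.97% of all 13745 named genes were higher and 10.2% lower. On this scale, which the pseudocount of 1 FPKM compresses for low genes, the members' median log2 fold was 0.53 (0.40 to 0.68), and that of all genes was 0.00. In all, 77 of the 82 were above 0 and 5 below it, against 50.2% of all genes above 0. At least 2-fold higher were 15 members, where 2.7% of all genes passed that mark, and 0 were at least 2-fold lower, where 3.24% of all genes were. The plain ratio of FPKM had a 95% counting interval above 1 for 73 members, below 1 for 3, and holding 1 for 6. The median member stood at 281 FPKM in Control and 407 in CEL, and 57 members were at 100 FPKM or more in both libraries. With the mitochondrially encoded genes left out of the library totals, 35 members were at least 1.5-fold higher and 0 lower.

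Of all reads in genes, the members together took 2.51% in Control (exact binomial 95% interval 2.51 to 2.52%) and 3.36% in CEL (3.35 to 3.36%), which is a ratio of 1.33. The 40S genes held 0.852% and 1.17% (ratio 1.38), and the 60S genes 1.66% and 2.18% (ratio 1.31). FPKM is relative to the library total, so more transcripts of these genes in each cell and less of other RNA cannot be told apart. In such a bulk sample, fewer cells and less RNA per cell cannot be told apart either. At least 1.5-fold higher were 16 of 31 measured 40S genes (51.6%), with a median log2 fold of 0.63 (0.36 to 0.87). Of 51 measured 60S genes 21 (41.2%) were, with a median of 0.48 (0.39 to 0.68). The intervals of the subunits overlapped, and 45.1% of all measured members and 8.97% of all named genes were higher.

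Folds of members with and without the pyrimidine tract at an annotated start covered a similar range, from −0.40 to 1.82 with it and from 0.00 to 1.75 without. For the 47 members with the tract the median log2 fold was 0.64 (95% interval over members 0.45 to 0.84), and 25 of them were at least 1.5-fold higher. The 20 measured members without it had a median of 0.49 (0.31 to 0.69), with 8 higher, so the intervals of the medians overlapped. Beside these counts, 45.1% of all measured members and 8.97% of all named genes were at least 1.5-fold higher. No test of a difference between the 2 groups was made. A run that opens after the annotated base counts as no tract in this split.

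**Figure D1:**
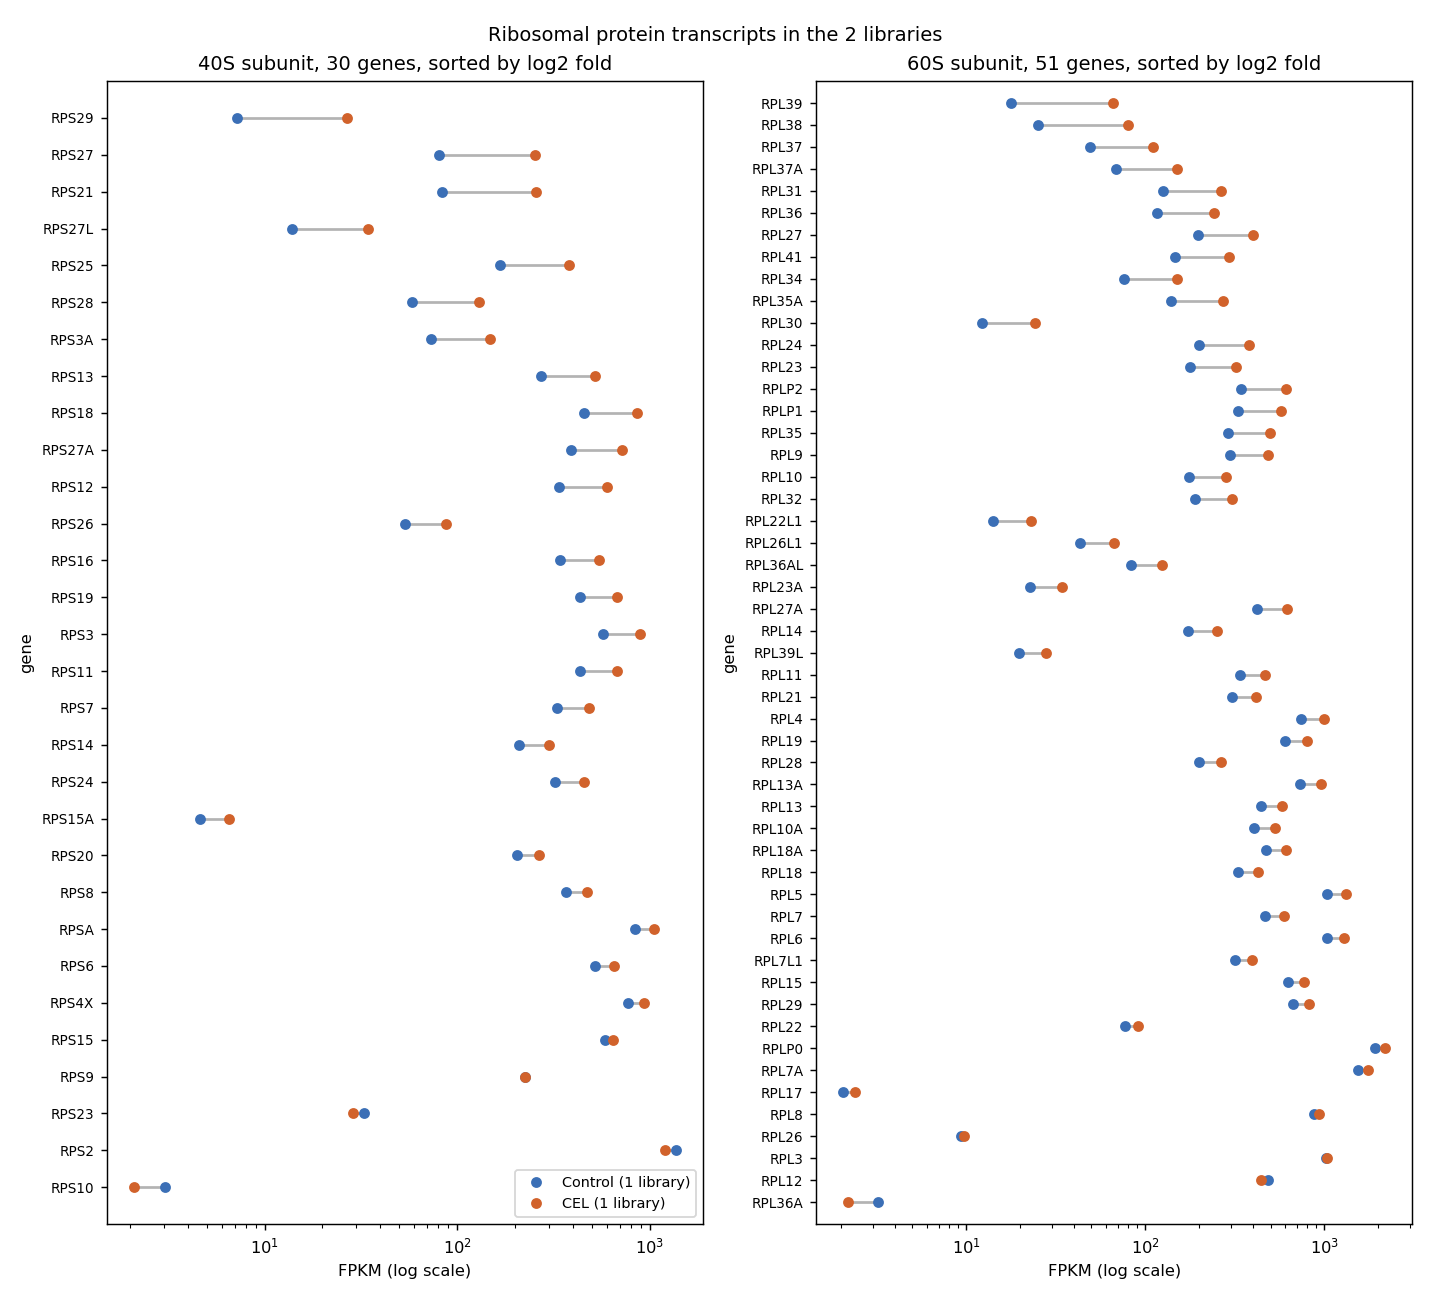
FPKM (log axis) of 81 of the 82 measured members (1 of the 40S is not drawn) in the Control (blue) and CEL (orange) library, 1 library each with no error bar, sorted by log2 fold within the 40S (30 genes) and 60S (51 genes) subunit. The widest gaps are those of RPL39 (17.9 and 65.7 FPKM), RPS29 (7.22 and 26.7) and RPL38 (25 and 80.4), and the most abundant members, such as RPLP0 (1927 and 2189.5), show narrow ones.

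The plot of levels by subunit shows that the members span about the same range of levels in both libraries, with the wide gaps mostly among genes of moderate level. The largest 40S folds belonged to small proteins. RPS29 (ENSG00000213741), a zinc-binding protein of the 40S head, had 159 reads in Control, or 7.22 FPKM, and 682 in CEL, or 26.7 FPKM. This is a ratio of 3.70 (95% interval 3.11 to 4.42) and a log2 fold of 1.75. RPS27 (ENSG00000177954), another zinc-binding protein, stood at 80.5 and 253 FPKM, a ratio of 3.14 (2.87 to 3.45). RPS21 (ENSG00000171858), on the solvent side of the 40S subunit, stood at 83.5 and 256 FPKM, a ratio of 3.06 (2.80 to 3.35). For each of these the CEL library was about as far above Control as for the others, although RPS29 had a far lower FPKM. The length by which FPKM divides was 1486 bases for RPS29, against 502 for RPS27 and 521 for RPS21. In Control reads the 3 stood at 159, 600 and 646.

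RPS25, known for its part in initiation at viral internal ribosome entry sites, stood at 167 and 379 FPKM, a ratio of 2.28 (2.16 to 2.41). RPS28, which lies near the exit of the mRNA channel, stood at 58.3 and 129 FPKM, a ratio of 2.22 (2.05 to 2.40). Both counting intervals lay above a ratio of 2. In the GENCODE 29 annotation, exons of genes on the opposite strand cover part of the annotated main transcripts of RPS25 (36.6%) and RPS28 (27.5%). The strand setting of the counting is not known, and reads of such pairs may have been counted together or left out.

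Of the 8 listed 40S proteins that line the path of the mRNA, 3 (37.5%) were at least 1.5-fold higher and 0 lower. Their median log2 fold was 0.44. Among all measured members 45.1% were higher. RPS28 and RPS26, neighbours at the channel's exit, had log2 folds of 1.14 and 0.69, and RPS3, at its entry, had 0.63. RPS2, another protein of the entry and 1 of the 5 most abundant members, was lower in CEL, with 1369.5 FPKM in Control against 1201 in CEL and a ratio of 0.877 (0.859 to 0.895). RPS23, a decoding-centre protein that bears on the accuracy of translation, stood at 32.7 and 28.9 FPKM, a ratio of 0.884 (0.790 to 0.989). These were 2 of the 3 members whose counting interval lay below 1, and neither came near the 1.5-fold mark. RPS15, in the 40S head, stood at 590 and 643 FPKM, a ratio of 1.09 (1.05 to 1.13), and RPS9 at 225 FPKM in both libraries, a ratio of 1.00 (0.957 to 1.05). RPS14 had a log2 fold of 0.53.

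Among the 60S genes, RPL39 (ENSG00000198918) had the highest log2 fold of all members. It encodes a short protein in the wall of the tunnel through which the new peptide leaves the ribosome, and had 239 reads in Control, or 17.9 FPKM, and 1020 in CEL, or 65.7 FPKM. This is a ratio of 3.68 (3.19 to 4.25) and a log2 fold of 1.82. RPL38 (ENSG00000172809), whose loss in mice disturbs the patterning of the skeleton, stood at 25 and 80.4 FPKM, a ratio of 3.21 (2.81 to 3.68). Exons of other genes on the opposite strand cover 57.8% of the main transcript of RPL38 and none of that of RPL39. RPL37, a zinc-binding protein, stood at 49.2 and 110.5 FPKM, a ratio of 2.24 (2.10 to 2.40). RPL37A, also zinc-binding, stood at 68.5 and 149 FPKM, a ratio of 2.18 (2.03 to 2.34). The first pair was thus more than 3-fold and the second pair somewhat more than 2-fold higher in the CEL library.

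Of 8 listed proteins around the tunnel exit, 3 (37.5%, beside 45.1% of all measured members) were at least 1.5-fold higher and 0 lower. The median log2 fold of the 8 was 0.49. RPL39, RPL31 (125 and 266 FPKM, log2 fold 1.08) and RPL35 (291 and 499 FPKM, log2 fold 0.78) were the 3. RPL23A, to which the signal recognition particle docks, lay just under the mark, at 22.8 and 34.4 FPKM and a log2 fold of 0.57. RPL19 and RPL22 had log2 folds of 0.41 and 0.24. RPL17 had 20 reads in Control, or 2.05 FPKM, and 27 in CEL, or 2.39 FPKM. RPL26, which is also known to bind the mRNA of p53, stood at 9.37 and 9.67 FPKM. The ratio of RPL17 was 1.16 (0.629 to 2.19) and that of RPL26 1.03 (0.760 to 1.40), and both intervals held 1. The exit proteins therefore did not share 1 fold, and the 2 with the lowest levels gave the widest intervals relative to their ratios.

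The stalk of the 60S subunit, which recruits the elongation factors, was uneven. RPLP0, its scaffold and the most abundant member, stood at 1927 FPKM in Control against 2189.5 in CEL, a ratio of 1.14 (1.12 to 1.16). Its dimer-forming partners RPLP1 (327 and 575 FPKM, ratio 1.76, 1.70 to 1.82) and RPLP2 (341 and 610 FPKM, ratio 1.79, 1.70 to 1.88) were alike in level and in fold. RPL12, at the base of the stalk, was lower in CEL, at 483 and 441 FPKM, a ratio of 0.912 (0.882 to 0.943). Within these counting intervals the ratios of RPLP1 and RPLP2 could not be separated, and both were apart from those of RPLP0 and RPL12. RPL5, 1 of the 2 proteins that carry the 5S RNA into the subunit, stood at 1033 and 1314 FPKM, a ratio of 1.27 (1.24 to 1.30). RPL11, the other, stood at 339 and 465 FPKM, a ratio of 1.37 (1.32 to 1.42). Neither reached the 1.5-fold mark.

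The 5 most abundant members by mean FPKM were RPLP0, RPL7A, RPS2, RPL5 and RPL6, and 0 of them were 1.5-fold higher. RPL7A stood at 1546 and 1742 FPKM, a ratio of 1.13 (1.11 to 1.15). RPL6 stood at 1030.3 and 1281 FPKM, a ratio of 1.24 (1.22 to 1.27). RPL3, which reaches toward the peptide-forming centre, stood at 1024 and 1028 FPKM (ratio 1.00, 0.980 to 1.03), and RPL8, a protein next to that centre, at 879 and 935 FPKM (ratio 1.06, 1.04 to 1.09). Across the 82 members, Spearman's rho of the log2 fold with Control FPKM was −0.44, a description over genes of the same 2 libraries that is partly built in, since the Control level enters the fold.

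The size of the protein went along with the fold more closely. Across the 82 members, Spearman's rho of the log2 fold with the coding length of the main transcript was −0.64, while with the gene length deposited by the authors it was −0.16. The 5 highest folds were of proteins of 51 (RPL39), 56 (RPS29), 70 (RPL38), 84 (RPS27) and 83 (RPS21) residues. RPL41, the shortest member at 25 residues, stood at 146 and 294 FPKM, a ratio of 2.01 (1.87 to 2.16). Levels were ordered the other way, with a rho of 0.69 between mean FPKM and coding length. The same tilt ran through other genes: over 8093 other protein-coding genes at 10 FPKM or more, rho of the log2 fold with coding length was −0.42. All of these share the same library pair and carry no p-value.

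Set beside other genes of like coding length, the members had the higher median in each of 5 length classes. Among protein-coding genes from 10 FPKM upward, members included, 8.57% were at least 1.5-fold higher and 6.38% lower. Under 300 coding bases, the median log2 fold was 1.26 (1.00 to 1.75) for 11 members at 10 FPKM or more, while 147 other genes had 0.50 (0.44 to 0.61). From 300 to under 450 bases the medians were 0.68 (0.58 to 0.85) for 26 members and 0.34 (0.31 to 0.39) for 340 others. From 450 to under 600 bases they were 0.53 (0.37 to 0.72) for 17 members and 0.28 (0.24 to 0.31) for 479 others. From 600 to under 900 bases they were 0.34 (0.31 to 0.39) for 20 members and 0.20 (0.18 to 0.22) for 1091 others, and the 3 members at 900 bases or more had 0.18 against −0.02 for 6036 others. Mitochondrial ribosomal proteins, themselves among the others, had medians of 0.51, 0.44, 0.43, 0.38 and 0.33 from the shortest class to the longest. These rest on 3, 17, 14, 20 and 14 genes. They lay below the members' medians in the 3 shorter classes and above them in the 2 longer ones. In the 3 middle classes their intervals (0.32 to 0.66, 0.21 to 0.55 and 0.17 to 0.54) overlapped those of the members. The shortest class had 3 mitochondrial genes and the longest 3 members, too few for an interval. At least 1.5-fold higher were 10 of the 11 shortest members (90.9%) and 44.9% of the other genes of that class. From 300 to under 450 bases it was 18 of 26 members (69.2%) and 26.2% of the others. From 450 to under 600 bases it was 6 of 17 members (35.3%) and 16.1% of the others. The shares were close from 600 to under 900 bases, with 3 of 20 members and 13.3% of the others. At 900 bases or more, 0 of 3 members and 4.74% of the others were higher. These intervals are over genes and not over cultures, and the part of length in the members' folds was not tested.

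**Figure D2:**
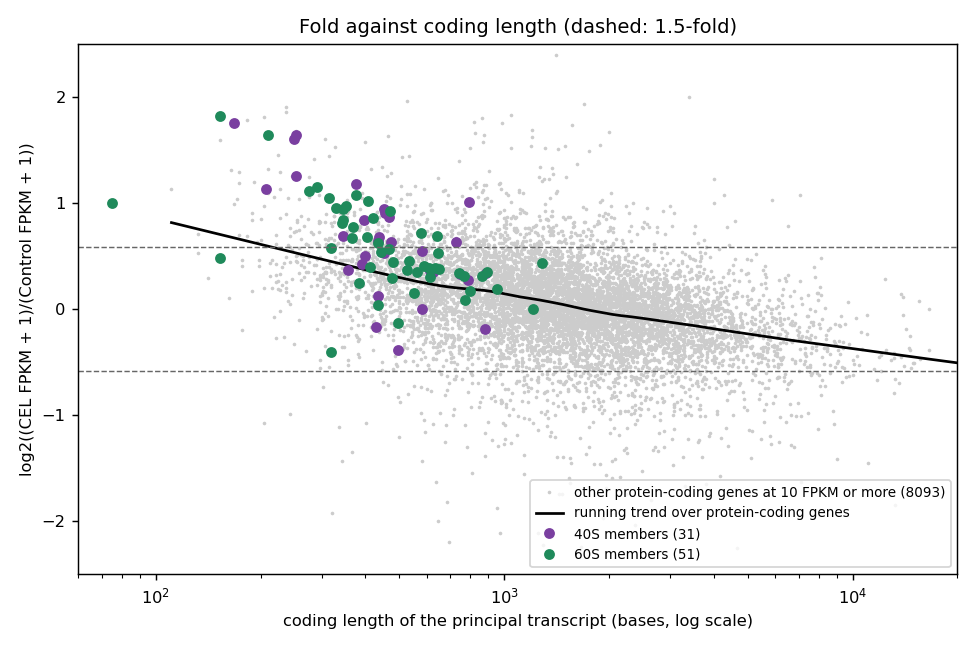
Log2((CEL FPKM + 1)/(Control FPKM + 1)) against the coding length of the main transcript in bases (log axis) for 31 measured 40S members (purple), 51 measured 60S members (green) and 8093 other protein-coding genes (grey), with the running trend over protein-coding genes (line) and the 1.5-fold marks (dashed). Short members lie highest, RPL39 at 1.82 and RPS29 at 1.75, and the grey cloud tilts the same way.

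When the running trend with coding length, seen in the plot of fold against coding length, was taken off every gene, the members' median log2 fold was 0.20, with 15 at least 1.5-fold higher and 2 lower. Of 11490 genes treated in the same way 4.63% were higher and 9.43% lower, with a median of −0.03. RPL39 then stood at 1.12, RPS27 at 1.11, RPS29 at 1.08, RPS21 at 1.07 and RPL38 at 1.05. RPL41 stood at 0.05, where it had been at 1.00 before. As the shortest member it lies at the short end of the trend, whose fit includes the members, so its value is uncertain. The 147 other genes under 300 coding bases had a median log2 fold of 0.50. The 2 lower were RPL36A at −0.85 and RPS10 at −0.69, both with under 40 reads in each library. With the trend along the deposited length taken off instead, the median was 0.29, with 17 higher and 2 lower, where 5.81% of all genes were higher and 13.4% lower, with a median of −0.05.

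The paralogs of ribosomal proteins, several of them known for tissue-restricted use, differed in their share of each pair. RPL39L, a paralog known from testis and some cancers, stood at 19.6 FPKM in Control against 27.8 in CEL, a ratio of 1.42 (1.19 to 1.69). Its parent RPL39 had a ratio of 3.68, so RPL39L made up 52.3% of the pair's FPKM in Control and 29.7% in CEL. The counting intervals of the 2 ratios did not overlap. In Control, RPL39L had 206 reads and RPL39 had 239, and the lengths by which FPKM divides were 710 and 903 bases. The shares of this pair depend on these lengths and are uncertain. RPS27L, known as a target of p53, stood at 13.9 and 34.6 FPKM, a ratio of 2.49 (2.20 to 2.83), and made up 14.7% and 12% of the pair with RPS27. RPL22L1 stood at 14.1 and 23.0 FPKM (ratio 1.63, 1.35 to 1.97) and its parent RPL22 at 77.2 and 91.5 (ratio 1.18, 1.10 to 1.28), so the paralog held 15.4% and 20.1% of the pair. RPL7L1, which is known rather as a factor of ribosome assembly, stood at 318 and 396 FPKM beside RPL7 at 467 and 591, and held 40.5% and 40.1%.

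In 2 pairs the paralog had the higher deposited level in both libraries, and RPL39L had it in Control alone, by FPKM and not by reads. RPL36AL stood at 83.0 and 125 FPKM (ratio 1.5, 1.38 to 1.64), with a log2 fold of 0.58 just under the 1.5-fold mark, and held 96.3% and 98.3% of the pair with RPL36A. RPL26L1 stood at 42.9 and 66.8 FPKM (ratio 1.55, 1.37 to 1.77), with a log2 fold of 0.62 just over the mark, and held 82.1% and 87.3% of the pair with RPL26. Their parents are among the members with the lowest deposited levels. Exons of another gene on the same strand cover 77.6% of the main transcript of RPL36A and 59.0% of that of RPL26. The parents' levels, and so the shares of these 2 pairs, are therefore uncertain. RPL10L, known from testis, had 0 reads in both libraries, which allows up to 0.262 FPKM in Control and 0.226 in CEL at 3 reads. Its parent RPL10 stood at 174 and 282 FPKM. RPL3L, known from heart and skeletal muscle, had 2 reads in each library (0.124 and 0.106 FPKM), a ratio of 0.862 (0.0625 to 11.9), and held 0.0121% and 0.0104% of the pair with RPL3.

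Low levels marked 8 members, which stayed under 10 FPKM in both libraries, although most of these proteins are needed in every ribosome. RPL36A stood at 3.23 and 2.19 FPKM (38 and 30 reads), a ratio of 0.680 (0.407 to 1.13), and RPS10, which the ligase ZNF598 marks on collided ribosomes, at 3.04 and 2.10 FPKM (35 and 28 reads), a ratio of 0.689 (0.404 to 1.17). Both intervals held 1. RPS15A stood at 4.64 and 6.56 FPKM, a ratio of 1.41 (1.05 to 1.91). RPL17, RPL26, RPL10L and RPL3L are also among the 8.

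In RPL36A, RPS10, RPL17 and RPL26, over 50% of the exonic bases of the main transcript lie in an exon of another annotated gene on the same strand. The shares were 77.6% for RPL36A, which is covered by the readthrough gene RPL36A-HNRNPH2, 77.0% for RPS10 (RPS10-NUDT3), 76.3% for RPL17 (RPL17-C18orf32) and 59.0% for RPL26. The 57 members at 100 FPKM or more in both libraries all had less than 50%. The deposited levels of these 4 are therefore uncertain as measures of their transcripts, and whether the counting left out reads that fall in more than 1 gene was not tested. Over the 82 measured members, rho of mean FPKM with the number of pseudogenes named after a member was 0.02.

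**Figure D3:**
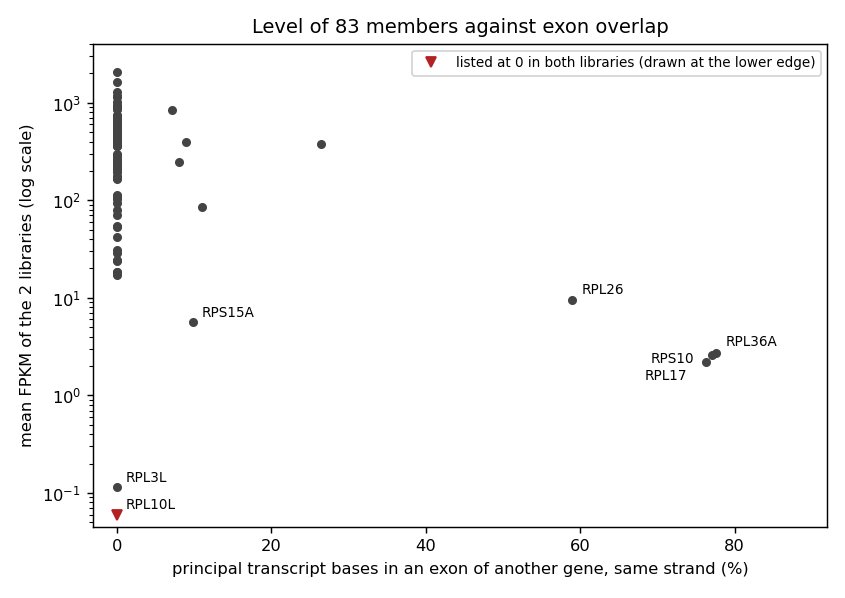
Mean FPKM of the 2 libraries (log axis) against the percent of bases of the main transcript that lie in an exon of another gene on the same strand, for 83 of the 85 members (2 are not drawn). RPL26, RPL17, RPS10 and RPL36A (59.0% to 77.6%) lie below 10 FPKM, and RPL10L, listed at 0, is drawn at the lower edge.

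The plot of level against exon overlap sets these 4 genes apart from the rest. Reads of close copies are a further limit, since 1211 pseudogenes in the table carry the name of a member. Of these, 960 had 0 reads in both libraries and 65 reached 1 FPKM in at least 1 library, and their summed reads were 0.0168% of the total in Control and 0.0216% in CEL. Of the 65, 15 (23.1%) were at least 1.5-fold higher and 8 lower in CEL, with a median log2 fold of 0.09. Of all named genes, 8.97% were higher and 10.2% lower. Many of these pseudogenes had few reads, and the counting interval of the ratio lay above 1 for 14 and below 1 for 2. RPL41P1, singled out after its values were seen, stood at 166 and 372 FPKM (199 and 518 reads), a ratio of 2.24 (1.90 to 2.65), close to the 2.01 of its parent RPL41. With the pseudogene reads added to their parents, 37 members were again at least 1.5-fold higher. That sum holds only reads that were counted, and any reads of close copies left out of the counting were not tested.

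Inherited loss of 1 copy of certain ribosomal protein genes causes Diamond-Blackfan anaemia, a failure of red cell production. Of 19 listed genes of this kind 18 were measured, and 9 (50%) were at least 1.5-fold higher and 0 lower. Their median log2 fold was 0.59. Among all measured members 45.1% were higher, with a median of 0.53, and among all named genes 8.97%. The share of these disease genes was thus near that of the members as a whole. RPS19, the gene most often affected, stood at 436 and 679 FPKM, a ratio of 1.56 (1.505 to 1.61). The 9 were RPS29, RPS27, RPS28, RPL31, RPL27, RPL35A, RPL35, RPS26 and RPS19, from a log2 fold of 1.75 down to 0.64. RPL5, RPL11, RPS7, RPS24, RPL15, RPL18, RPS15A and RPL26 lay between 0.54 and 0.04, and RPS10 at −0.38.

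Genes that make a ribosomal protein as a fusion lay with the higher members. FAU, which encodes RPS30 behind a ubiquitin-like protein, stood at 15.3 and 47.4 FPKM, a ratio of 3.11 (2.60 to 3.74) and a log2 fold of 1.58. RPS27A, a member that is made behind ubiquitin, stood at 390.1 and 715 FPKM, a ratio of 1.83 (1.76 to 1.90). Both were past the 1.5-fold mark in the CEL library.

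Genes linked to the members by function are set beside them without a test of the difference. Of all named genes, 8.97% were at least 1.5-fold higher and 10.2% lower. Mitochondrial ribosomal proteins, which build the separate ribosome of that organelle, had 17 of 75 measured genes (22.7%) at least 1.5-fold higher and 0 lower. Their median log2 fold was 0.41 (0.33 to 0.51), or 0.13 less the coding length trend. Their largest log2 folds were those of MRPL36 (25.7 and 48.7 FPKM, 0.90), MRPS18C (1.12 and 2.90, 0.88), MRPL32 (17.8 and 32.2, 0.82) and MRPL14 (43.6 and 76.8, 0.80). The members' own median, less that trend, was 0.20, beside 0.13 for the mitochondrial ones.

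Other genes with TOP mRNAs, mostly translation factors and host genes of small nucleolar RNAs, had 8 of 27 (29.6%) higher and 0 lower. Among all named genes 8.97% were higher and 10.2% lower. The median log2 fold of these TOP genes was 0.38 (0.03 to 0.59). Less the coding length trend, the median was 0.20 over the 23 of them with a coding length, the same as that of the members. Beside FAU, the largest were SNHG5 (22.9 and 58.6 FPKM, 1.32), SNHG8 (12.9 and 26.1, 0.96) and NACA (77.1 and 132, 0.77), the first 2 noncoding hosts and the last a chaperone subunit at the tunnel exit. Nucleolar assembly factors, which build the subunits around the members, had 8 of 43 (18.6%) higher and 0 lower. Their median was 0.45 (0.35 to 0.49), or 0.40 less the coding length trend. Among them NOP16 stood at 11.9 and 34.1 FPKM (log2 fold 1.44) and PNO1 at 24.6 and 52.4 (1.06), with EBNA1BP2 at 68.9 and 115 (0.73) and EIF6 at 76.7 and 127 (0.72). Removing the trend took the median of the assembly factors from 0.45 to 0.40, and that of the members from 0.53 to 0.20.

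**Figure D4:**
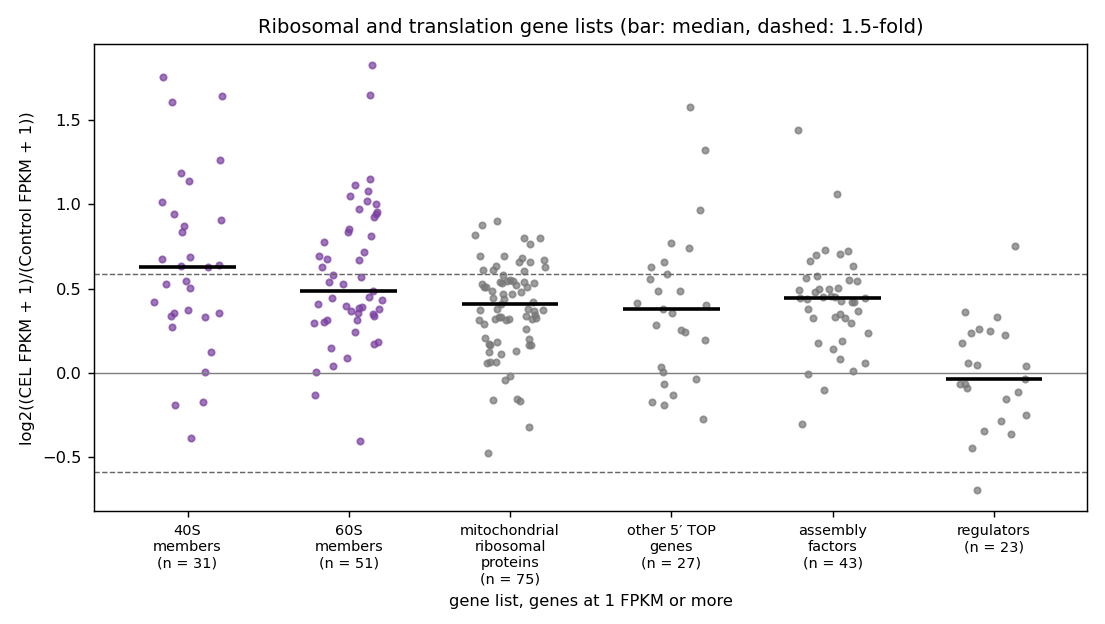
Log2((CEL FPKM + 1)/(Control FPKM + 1)) of each gene at 1 FPKM or more (points) with the median (bar) for 40S and 60S members and for 4 other gene lists; dashed lines are the 1.5-fold marks. The medians are 0.63 and 0.48 for the members and 0.41, 0.38 and 0.45 for mitochondrial ribosomal proteins, other TOP genes and assembly factors, and −0.04 for regulators.

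In the plot of gene lists, the regulators were the list nearest 0, with a median of −0.04 (−0.16 to 0.23) over 23 genes. Of these, 1 was higher and 1 lower, beside 8.97% and 10.2% of all named genes. The list mixes regulators of ribosomal protein synthesis with genes of other roles, such as MDM2 and ZNF598. MYC, a transcription factor that drives ribosome production, was the higher one, at 45.1 and 76.7 FPKM (log2 fold 0.75, ratio 1.70, 1.58 to 1.83). DDIT4, known to restrain mTORC1 under stress, was the lower one, at 69.9 and 42.8 FPKM (log2 fold −0.69, ratio 0.613, 0.557 to 0.674). TSC2, which restrains mTORC1 through RHEB, stood at 34.2 and 24.8 FPKM (−0.44), and MTOR, the kinase of that complex, at 53.9 and 41.7 (−0.36). Transcript levels of these genes do not measure the activity of the kinase, and any link of theirs to the members was not tested.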

How the data were processed

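Transcript levels of 2 MDA-MB-231 libraries, 1 Control and 1 CEL, were used. The authors deposited FPKM and a gene length per gene, and these values were used as deposited. HTSeq 0.5.4 and build GRCh38 are given per the submitters' processing notes. For the aligner, annotation release and strand setting, nothing is given in the sources used here. From FPKM times length, the whole reads of 100% of the 24783 genes above 0 were recovered (relative tolerance 1e-06; 68.7% at the printed length). Another 354 genes without a name, with 0.298% and 0.265% of reads, stayed out of counts of genes. Lengths, coding lengths and exon overlaps came from GENCODE 29 (58437 IDs matched, 78.0% with equal coordinates, 33 members among them) and promoters from RefSeq.

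A gene was measured where either library reached 1 FPKM, and called past 1.5-fold on the log2 scale with a pseudocount of 1 FPKM. Ratios carry exact conditional binomial 95% intervals and shares exact Clopper-Pearson ones. A count of 0 allows 3 reads. Medians carry order-statistic intervals over genes. The trend with length was a lowess (span 0.3) from genes at 10 FPKM or more, members included. No count test, p-value or standard error was made, since no group has replicates. The computation was tested on simulated data. Python 3.11.15, numpy 2.4.6, pandas 2.3.3, scipy 1.17.1 and statsmodels 0.14.6 were used. Members and lists were chosen with earlier results of these data known. Genes were named by rule: the 10 highest and 10 lowest log2 folds, the 5 highest and 5 lowest levels, paralogs with parents, the stalk and 5S proteins, FAU, members under 1 FPKM, and in each other list up to 4 with the largest absolute log2 fold. Members of the role lists, RPL41 and RPS27A were named beside these after their values were seen. A few genes that enter the counts are not reported here by name. Alternatives were other pseudocounts, filters, scalings, length trends, pseudogene reads and subsets of members.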

Additional observations from a re-analysis of the deposited data

How the results depend on the processing

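With 1 library a group, no replicate could be left out, and the limits are those of a single pair of cultures at about the same depth. Counting error limits chiefly the 8 members under 10 FPKM. No paired analysis was possible because each group has 1 library. With 0.1 or 5 FPKM as pseudocount, no filter or 5 FPKM as filter, TPM, median centring, upper-quartile scaling, mitochondrial genes out of the total, pseudogene reads added or paralogs left out, 33 to 38 members were at least 1.5-fold higher and 0 lower, with medians of 0.47 to 0.54. Under these settings 2.41% to 11.5% of all genes were higher and 2.87% to 14.1% lower. With the trend along deposited length removed, 17 were higher and 2 lower, with a median of 0.29. With the trend along coding length removed, an alternative chosen after seeing the data, 15 were higher and 2 lower, with a median of 0.20. Among the 43 members overlapping no other gene above 0 reads, 17 were higher and 0 lower, with a median of 0.50; that count is lower in part because fewer genes enter it. Leaving out members with over 50% overlap on the same strand, also chosen after seeing the data, gave 37 higher and a median of 0.56. The members' share of reads was 2.71% in Control and 3.498% in CEL without mitochondrial genes, and 2.53% and 3.38% with pseudogenes added.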
